A study of Mus musculus with 30 samples.

Results

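Nr4a1, Nr4a2 and Nr4a3, which are also known as Nur77, Nurr1 and Nor1, are the 3 members of the Nr4a family of orphan nuclear receptors. They were found in the deposited count table by their Ensembl identifiers and make up 3 of its 43629 genes. All 3 passed the filter on low counts in every comparison. RNA had been sequenced from bone marrow–derived dendritic cells (BMDCs), which are cells grown from mouse bone marrow in medium with GM-CSF, here for 6 days. The 10 cultures were 5 WT and 5 Cacnb3-/- cultures, the latter lacking the calcium channel β3 subunit, and each gave 3 libraries, named ctrl, 0p5h and 24h. Per the study's methods, WT mice were C57BL/6J and Cacnb3-/- mice were on C57BL/6N, so that genotype and substrain cannot be told apart, and adult mice of both sexes were used. Cells of the stimulated sets had received 500 µM ATP for 30 min.

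Library names and treatment fields disagree on 2 of the 3 sets. Libraries named ctrl carry a treatment field of 30 min ATP, and libraries named 0p5h carry vehicle, whereas for the 24h libraries both read 24 hours after ATP. The sets are therefore given by library name, and every change between ctrl and 0p5h has the opposite direction in time if the treatment field holds. The change from 0p5h to 24h is then one from vehicle to 24 hours after ATP. The labels do not say whether a culture number marks 1 animal, so the p-values measure the spread between these cultures. Libraries held 8237393 to 32164225 counts (median 19556920). Levels are given as CPM, the count per 1000000 after TMM normalization, and as RPKM, which also divides by gene length, where genes are compared with each other.

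Nr4a receptors bind DNA through zinc fingers as other nuclear receptors do, but their ligand pocket is filled with bulky side chains, so that their activity is set largely by how much of each protein is made. Their genes are classical immediate early genes, which are transcribed within minutes of a stimulus without new protein synthesis. Calcium and cAMP signals act on them through CREB and, in lymphocytes, through MEF2 factors. In dendritic cells and macrophages the receptors are known for restraint of inflammatory genes, and Nr4a3 also for the migration of dendritic cells.

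In the GRCm38 annotation of the count table, Nr4a1 (ENSMUSG00000023034) lies on the forward strand at chr15:101266846-101274792, Nr4a2 (ENSMUSG00000026826) on the reverse strand at chr2:57106830-57124003 and Nr4a3 (ENSMUSG00000028341) on the forward strand at chr4:48045153-48086447. Their exons sum to 2474, 4059 and 5987 bases. The 250 bases before each RefSeq start site on GRCm38.p6 were searched on both strands, because CREB binds the cAMP response element (CRE). The motifs were the palindromic CRE TGACGTCA, its core TGACG, the NBRE AAAGGTCA, to which Nr4a proteins themselves bind, and the CArG box of serum response factor. The CArG box was searched as CCWWWWWWGG, where W is A or T. Near matches were not counted for any motif. The core is contained in the palindromic CRE. Each of the 3 promoters held 4 cores, a number reached by 45 of 32851 promoters of this length (0.137%), and 17.8% of all promoters held at least 1. None of the 3 held an exact match to the palindromic CRE, the NBRE or the CArG box, which occurred in 1.55%, 1.34% and 1.47% of all promoters. The promoters are GC-rich, with 74.4% G and C in Nr4a1, 80% in Nr4a2 and 63.6% in Nr4a3. The shares over all promoters were not matched for this content, so they do not show an enrichment of the core. The upstream sequences follow, read 5′ to 3′ on the strand of each gene, with the core on either strand in capitals (CGTCA is the core on the other strand). They are chr15:101266596-101266845 for Nr4a1, chr2:57124004-57124253 for Nr4a2 and the first 98 bases of the window, chr4:48045055-48045152, for Nr4a3, since the remaining 152 bases lie inside the gene as annotated in the count table.
Nr4a1: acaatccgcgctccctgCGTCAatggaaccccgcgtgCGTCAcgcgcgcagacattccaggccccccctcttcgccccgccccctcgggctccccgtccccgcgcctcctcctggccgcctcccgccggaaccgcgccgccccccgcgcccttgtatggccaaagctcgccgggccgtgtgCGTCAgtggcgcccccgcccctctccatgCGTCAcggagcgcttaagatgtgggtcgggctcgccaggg
Nr4a2: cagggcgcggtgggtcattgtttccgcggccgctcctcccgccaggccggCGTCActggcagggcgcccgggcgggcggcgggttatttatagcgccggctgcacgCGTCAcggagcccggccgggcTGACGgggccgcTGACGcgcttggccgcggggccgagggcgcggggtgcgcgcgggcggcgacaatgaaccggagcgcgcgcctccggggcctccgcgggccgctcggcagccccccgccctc
Nr4a3: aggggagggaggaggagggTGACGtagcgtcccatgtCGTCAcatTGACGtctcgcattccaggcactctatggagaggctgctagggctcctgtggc
The cores began 233, 213, 69 and 40 bases before the start of Nr4a1 and 200, 144, 123 and 111 bases before that of Nr4a2. In Nr4a3 they began 231, 213, 205 and 147 bases before the start, the last of them outside the printed stretch. These matches are letters in a window and not measured binding sites.

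The 3 genes shared a peak in the libraries named 0p5h but differed in level and in the size of the change. Nr4a1 was low in ctrl and 24h and rose about 20-fold in 0p5h. Nr4a2 was about 2.5-fold higher in 0p5h, and Nr4a3, the most abundant of the 3 in CPM, about 1.4-fold. In 10 of 10 cultures each gene was higher in 0p5h than in ctrl, and in 10 of 10 it was lower in 24h than in 0p5h. The share of all genes with 1 direction in 10 of 10 cultures was not counted, and both counts use the same 0p5h libraries. Neither of the changes from ctrl to 0p5h or from 0p5h to 24h was shown to differ between genotypes.

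**Figure D1:**
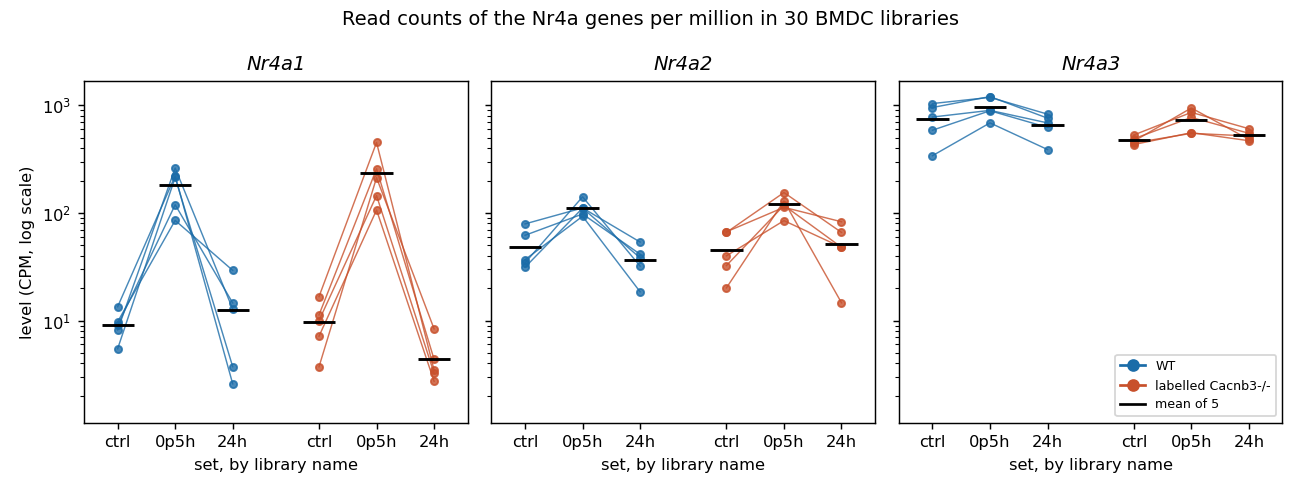
CPM of each gene (log axis) in the 30 libraries, by library name, with lines joining the libraries of 1 culture and black bars at the mean of 5. Nr4a1 sits between 2.58 and 29.3 CPM in ctrl and 24h and between 85.3 and 452 CPM in 0p5h, whereas Nr4a3 sits between 341 and 1207 CPM throughout.

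Nr4a1 encodes Nur77, the family member best known as an immediate early gene of antigen receptor and growth factor signaling. In WT libraries named ctrl it was at 9.02, 5.47, 9.75, 8.18 and 13.4 CPM in cultures p974s846, p974s850, p974s855, p974s856 and p974s864. In 0p5h the same cultures were at 119, 214, 85.3, 261 and 221 CPM, and in 24h at 14.6, 3.73, 29.3, 12.8 and 2.58 CPM. All 5 values of 0p5h lay above all values of the other sets, and in 24h cultures p974s855 and p974s846 were the highest. In libraries labelled Cacnb3-/- and named ctrl it was at 3.72, 11.3, 7.16, 10 and 16.7 CPM in cultures p974s843, p974s851, p974s852, p974s853 and p974s865. In 0p5h these were at 213, 257, 106, 145 and 452 CPM, and in 24h at 8.38, 4.36, 2.73, 3.24 and 3.46 CPM. Here too 0p5h did not overlap with the other sets, and culture p974s865 was the highest in both ctrl and 0p5h. The share of all genes whose sets do not overlap was not counted, here or for Nr4a2 and Nr4a3. In the Cacnb3-/- libraries named 24h the values rest on 31 to 87 reads, and the lowest value of all, 2.58 CPM in WT culture p974s864 in 24h, rests on 55.

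The log2 fold change of Nr4a1 from ctrl to 0p5h was 4.31 in WT (standard error 0.36, adjusted p = 0.000926, edgeR quasi-likelihood test with Benjamini-Hochberg adjustment over 13085 genes). It was 4.57 in Cacnb3-/- BMDCs (standard error 0.47, adjusted p = 0.0011, edgeR, over 12750 genes). Only 1 gene in WT and 2 genes in Cacnb3-/- BMDCs had a larger fitted rise. To be called, a gene needed an adjusted p under 0.05 together with a 2-fold or larger change. By this rule 1 of the 3 genes was called in each genotype, where 0.176% of all genes tested were called in WT and 0.29% in Cacnb3-/- BMDCs. By culture, Nr4a1 was 8.75- to 39.1-fold higher in 0p5h than in ctrl in WT and 14.5- to 57.1-fold higher in Cacnb3-/- BMDCs.

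In WT, Nr4a1 then had a log2 fold change of -3.83 between 0p5h and 24h, a called fall (standard error 0.62, adjusted p = 0.0117, edgeR). In Cacnb3-/- BMDCs it was -5.75, also called (standard error 0.47, adjusted p = 0.000139, edgeR). It had the 4th and the 3rd largest fitted fall of all genes in WT and Cacnb3-/- BMDCs. In WT the log2 fold change stayed at -4.01 without p974s846, -3.53 without p974s850 and -3.67 without p974s856, but the adjusted p was then 0.0712, 0.0719 and 0.0990 (edgeR). By culture, the level in 24h was 0.0117 to 0.343 of that in 0p5h in WT and 0.00766 to 0.0394 in Cacnb3-/- BMDCs. The WT culture with the highest share was p974s855.

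Nr4a2 encodes Nurr1, which is required for midbrain dopamine neurons and is also induced in myeloid cells. In WT libraries named ctrl it was at 62.0, 31.3, 79.2, 36.8 and 34.5 CPM in the order of cultures given above. In 0p5h it was at 97.9, 111, 111, 93.2 and 141 CPM, and in 24h at 41.4, 38.3, 53.7, 18.5 and 32.1 CPM. The 0p5h values were all above those of ctrl and 24h, and the latter sets overlapped. In libraries labelled Cacnb3-/- it was at 40.0, 32.5, 66.0, 66.9 and 20.1 CPM in ctrl. In 0p5h it was at 84.9, 118, 155, 113 and 129 CPM, and in 24h at 48.0, 48.0, 66.0, 82.9 and 14.6 CPM. Again 0p5h stood above both other sets without overlap, and the share of all genes without overlap was not counted. Culture p974s865 had the lowest value of the group in ctrl and in 24h, and not in 0p5h.

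The log2 fold change of Nr4a2 from ctrl to 0p5h was 1.20 in WT (standard error 0.25, adjusted p = 0.119, edgeR) and 1.40 in Cacnb3-/- BMDCs (standard error 0.30, adjusted p = 0.129, edgeR), so it was not called in either. The call depended on the fit. DESeq2, which did not pair the libraries of a culture, called Nr4a2 in both genotypes (adjusted p = 0.00138 in WT and 0.00136 in Cacnb3-/- BMDCs). It called 51 of 15845 genes in WT and 56 of 13874 in Cacnb3-/- BMDCs. In edgeR Nr4a2 was also called without pairing when no filter on low counts was used in Cacnb3-/- BMDCs (adjusted p = 0.0254) and with lane as a covariate in WT (adjusted p = 0.0470). These 2 fits called 43 of 25107 and 31 of 13085 genes. With culture as a replicate block the log2 fold change of Nr4a2 was 1.26 in WT (standard error 0.19, adjusted p = 0.00340, edgeR) and 1.49 in Cacnb3-/- BMDCs (standard error 0.23, adjusted p = 0.00801, edgeR). Then 2 of the 3 genes, Nr4a1 and Nr4a2, were called in each genotype, where 0.581% of all genes tested were called in WT and 0.643% in Cacnb3-/- BMDCs. Between 0p5h and 24h, Nr4a2 had a called fall in WT, at an estimate of -1.59 on the log2 scale (standard error 0.24, adjusted p = 0.00708, edgeR). The estimate stayed at -1.68 without culture p974s846 and -1.60 without p974s850, but the adjusted p was then 0.0505 and 0.0717 (edgeR). For Cacnb3-/- BMDCs the estimate was -1.20 (standard error 0.35, adjusted p = 0.149, edgeR). With the replicate block it was -1.34 (standard error 0.29, adjusted p = 0.00767, edgeR), which is a called fall. Without the block, 2 of the 3 genes were called from 0p5h to 24h in WT, where 0.639% of all genes were called, and 1 of 3 in Cacnb3-/- BMDCs, where 0.66% were. With the block, 2 of 3 were called in each genotype, against 1.78% of all genes in WT and 2.88% in Cacnb3-/- BMDCs.

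Nr4a3 encodes Nor1 and was expressed at a high level in every set. In WT libraries named ctrl it was at 779, 588, 1039.7, 955 and 341 CPM in the order of cultures given above. In 0p5h it was at 899, 891, 1187, 1207 and 688 CPM, and in 24h at 687, 624, 829, 760.5 and 389 CPM. The 3 sets overlapped, and culture p974s864 was the lowest in each of them. In libraries labelled Cacnb3-/- it was at 433, 489.6, 531, 447 and 465 CPM in ctrl. In 0p5h it was at 558, 772, 861, 550.0 and 946 CPM, and in 24h at 469, 550.3, 607, 519 and 483 CPM. Here the 0p5h values were above all of ctrl and overlapped with those of 24h. The spread between cultures in ctrl was wider in WT (740 ± 283 CPM, SD, n = 5) than in Cacnb3-/- BMDCs (473 ± 38.6 CPM, SD, n = 5).

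The log2 fold change of Nr4a3 from ctrl to 0p5h was 0.41 in WT (standard error 0.27, adjusted p = 0.9997, edgeR) and 0.63 in Cacnb3-/- BMDCs (standard error 0.17, adjusted p = 0.394, edgeR). Between 0p5h and 24h it was -0.56 in WT (standard error 0.21, adjusted p = 0.330, edgeR) and -0.48 in Cacnb3-/- BMDCs (standard error 0.18, adjusted p = 0.223, edgeR). With the replicate block the values from ctrl to 0p5h were 0.48 in WT (standard error 0.10, adjusted p = 0.0203, edgeR) and 0.60 in Cacnb3-/- BMDCs (standard error 0.10, adjusted p = 0.0149, edgeR). Between 0p5h and 24h they were -0.58 (standard error 0.083, adjusted p = 0.00331, edgeR) and -0.45 (standard error 0.12, adjusted p = 0.0199, edgeR). These passed the adjusted p but not the 2-fold minimum, so Nr4a3 was not called. By culture it was 1.14- to 2.04-fold higher in 0p5h than in ctrl over all 10 cultures. In 24h it was at 0.510 to 0.944 of the level in 0p5h.

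When both genotypes entered 1 fit with culture as a replicate block, an alternative chosen after the data were seen, Nr4a1 and Nr4a2 were called from ctrl to 0p5h at log2 fold changes of 4.39 (standard error 0.20, adjusted p = 7.6e-10, edgeR) and 1.38 (standard error 0.17, adjusted p = 4.19e-05, edgeR). For Nr4a3 the estimate was 0.54 (standard error 0.080, adjusted p = 0.000229, edgeR), which passed the adjusted p but not the 2-fold minimum. Between 0p5h and 24h the values were -4.90 for Nr4a1 (standard error 0.48, adjusted p = 6.86e-06, edgeR), -1.49 for Nr4a2 (standard error 0.21, adjusted p = 0.000157, edgeR) and -0.51 for Nr4a3 (standard error 0.080, adjusted p = 0.000391, edgeR). In these fits 2 of the 3 genes were called, where 0.728% and 2.03% of all genes tested were called. From ctrl to 24h, 0 of 3 were called, against 0.909% of all genes. There the culture numbers were not shown to pair all libraries labelled Cacnb3-/-. Their deviations from group means had r over 0.1 in 4 of 5 cultures.

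In 8 of 10 cultures the 3 libraries shared a sequencing lane. Within lanes, over cultures whose libraries shared one, Nr4a1 was 16.4- to 39.1-fold higher in 0p5h than in ctrl in lane 1, 14.9- to 32-fold in lane 2 and 8.75- to 57.1-fold in lane 3 (n = 3 cultures each). The corresponding ranges for Nr4a2 were 3.54 to 4.10, 2.35 to 6.42 and 1.41 to 2.12. For Nr4a3 they were 1.52 to 2.02, 1.26 to 2.04 and 1.14 to 1.29. Each gene was thus higher in 0p5h within every lane, and the ranges of Nr4a2 and Nr4a3 were lowest in lane 3. The part of the lane in these folds was not tested.

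**Figure D2:**
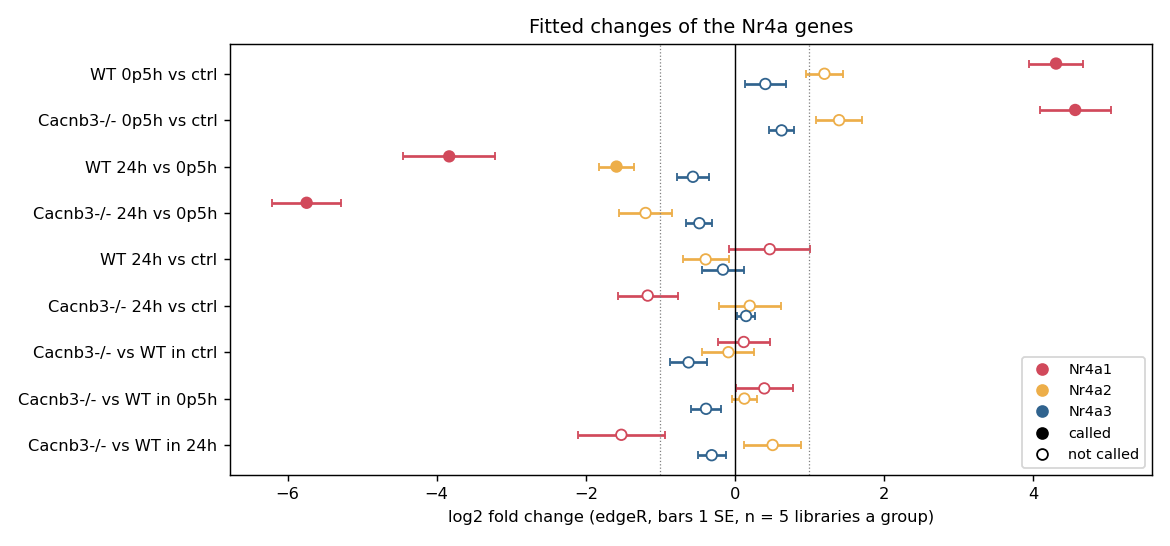
Fitted log2 fold changes (x axis, edgeR, bars 1 SE) of the 3 genes in 9 comparisons, with filled points for called genes and dotted lines at 2-fold. Nr4a1 moves by 4.31 and 4.57 from ctrl to 0p5h, and none of the 3 is called by edgeR between 24h and ctrl or between genotypes.

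From ctrl to 24h none of the 3 genes was called. Nr4a1 had a log2 fold change of 0.47 in WT (standard error 0.54, adjusted p = 0.842, edgeR) and -1.17 in Cacnb3-/- BMDCs (standard error 0.40, adjusted p = 0.444, edgeR). In WT 3 of 5 cultures were higher in 24h than in ctrl, and in Cacnb3-/- BMDCs 1 of 5 was. Nr4a2 was at -0.39 and 0.20, and Nr4a3 at -0.16 and 0.15, in WT and Cacnb3-/- BMDCs. By culture, Nr4a2 was higher in 24h in 1 of 5 WT and 4 of 5 Cacnb3-/- cultures. Nr4a3 was higher in 2 of 5 WT cultures and in 5 of 5 Cacnb3-/- cultures, there by 1.04- to 1.16-fold. In WT edgeR called 2 genes, or 0.0152% of all genes tested, DESeq2 called 30 and edgeR with the replicate block 122, and in each of these 0 of the 3 Nr4a genes were called. In Cacnb3-/- BMDCs edgeR called 0 genes of 12452 (0%), with 1343 at an unadjusted p under 0.05, and DESeq2 called 48, and in both 0 of the 3 Nr4a genes were called.

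The share of each gene in the family was compared within a library, where depth cancels out. The log2 ratio of Nr4a1 to Nr4a2 counts rose from ctrl to 0p5h by 2.96 in WT and by 3.04 in Cacnb3-/- BMDCs (two-sided exact permutation tests over libraries, adjusted p = 0.0136 and 0.0190 over 12 tests). The ratio of Nr4a1 to Nr4a3 rose by 3.76 and 3.96 (adjusted p = 0.0136 in both, same exact test). The ratio of Nr4a2 to Nr4a3 rose by 0.80 and 0.91 (adjusted p = 0.0476 and 0.0190, same exact test). Each of these ratios was higher in 0p5h in 5 of 5 cultures of each genotype. The order of the changes, with Nr4a1 first, then Nr4a2 and then Nr4a3, was thus the same in WT and Cacnb3-/- BMDCs. Into 24h the ratios changed by -2.57, -3.65 and -1.08 in WT (adjusted p = 0.0136, 0.0136 and 0.0190, same exact test) and changed by -4.27, -5.20 and -0.93 in Cacnb3-/- BMDCs (adjusted p = 0.0136, 0.0136 and 0.0346, same exact test). Each fell in 5 of 5 cultures. The smallest unadjusted p that 5 against 5 libraries allow is 0.00794. These exact tests did not pair the libraries of a culture. A paired sign-flip test over 5 cultures cannot go below 0.0625, and it gave this value as the adjusted p for all 12 ratios.

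Per gene length, Nr4a3 held most of the family's RNA in ctrl and 24h and less in 0p5h. Its median share of the summed RPKM was 88.1% in WT ctrl, 61.1% in WT 0p5h and 87.9% in WT 24h. In libraries labelled Cacnb3-/- it was 86.4%, 49.2% and 85.4%. The median share of Nr4a1 went from 2.05% to 32% and back to 3.79% in WT, and from 4.25% to 39.7% and 1.64% in Cacnb3-/- BMDCs. Nr4a2 kept a median share between 8.09% and 12.6% in all 6 groups.

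In ctrl and 24h the order by mean RPKM was Nr4a3, Nr4a2 and Nr4a1, and in 0p5h it was Nr4a3, Nr4a1 and Nr4a2. Neighbours in this order overlapped in some groups. In WT 0p5h, Nr4a1 (34.5 to 106 RPKM) and Nr4a2 (23 to 34.8 RPKM) met at the edge of their ranges, and Nr4a3 (115 to 202 RPKM) stood apart. In Cacnb3-/- 0p5h, Nr4a3 (91.9 to 158 RPKM) overlapped with Nr4a1 (43.0 to 183 RPKM), which stood apart from Nr4a2 (20.9 to 38.2 RPKM). Nr4a1 and Nr4a2 also overlapped in Cacnb3-/- ctrl and in WT 24h.

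**Figure D3:**
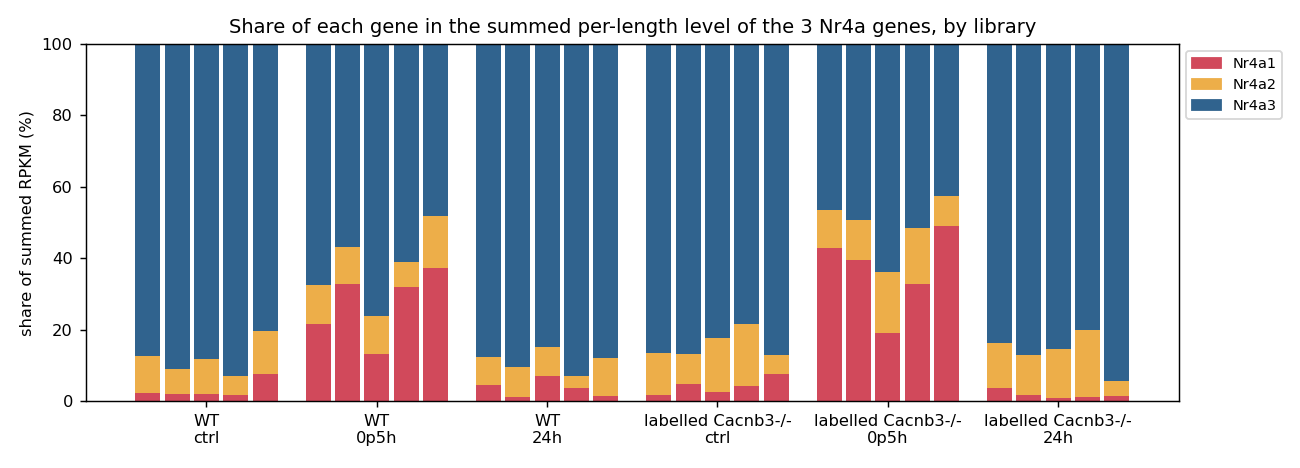
Share of each gene in the summed RPKM of the 3 genes (y axis, percent), 1 bar per library. Nr4a1 takes a median of 32% and 39.7% in the 0p5h libraries of WT and Cacnb3-/- BMDCs and at most 7.67% in any ctrl or 24h library.

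Among 49 nuclear receptor genes, the 3 Nr4a genes and 46 others, Nr4a3 had the highest mean RPKM in all 6 groups, from 79 ± 6.46 in Cacnb3-/- ctrl to 163 ± 36.8 in WT 0p5h (SD, n = 5). The next gene was Vdr, the vitamin D receptor, in ctrl of both genotypes and in Cacnb3-/- 24h, and Nr1h2, the oxysterol receptor LXRβ, in WT 24h. In WT ctrl the ranges of Nr4a3 and Vdr overlapped, and in Cacnb3-/- ctrl and 24h they did not. In WT 24h Nr4a3 (64.9 to 138 RPKM) overlapped with Nr1h2 (37.7 to 80.9 RPKM). In 0p5h Nr4a1 ranked second in both genotypes, with 72.8 ± 30.0 RPKM in WT and 94.9 ± 54.5 RPKM in Cacnb3-/- BMDCs (SD, n = 5). Of the 46 other receptors, 23 in WT and 22 in Cacnb3-/- BMDCs were tested from ctrl to 0p5h, and 0 were called in either genotype, where 0.176% and 0.29% of all genes were, so that a list of this size would hold few called genes or none. Their median log2 fold change was 0.040 in WT and -0.059 in Cacnb3-/- BMDCs, beside medians of 0.0075 and -0.0087 over all genes tested. Between 0p5h and 24h, 0 of 23 were called in each genotype, against 0.639% and 0.66% of all genes.

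**Figure D4:**
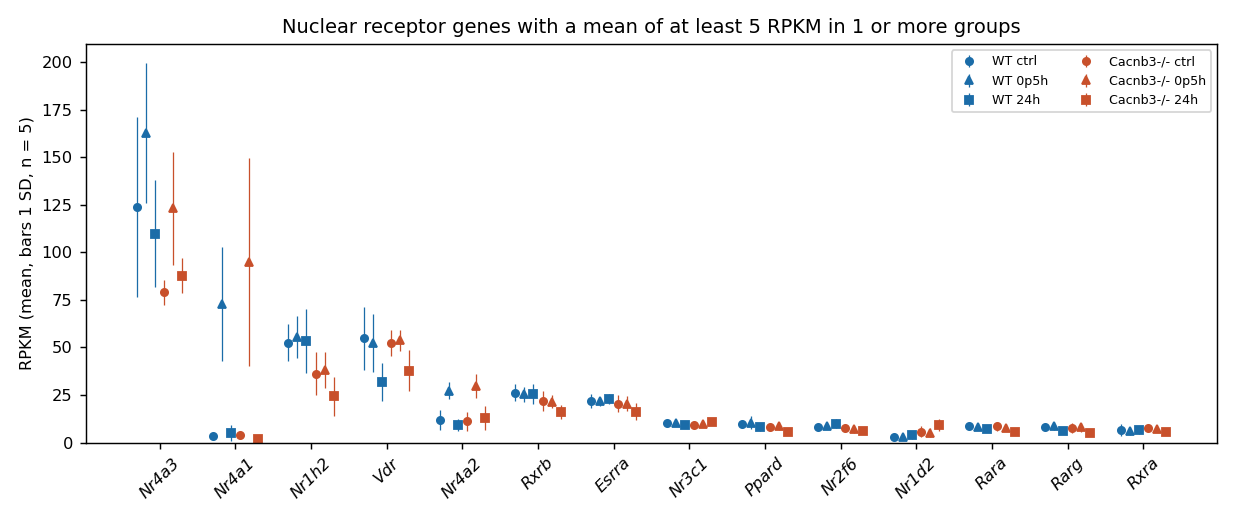
Mean RPKM (bars 1 SD, n = 5) of the 14 nuclear receptor genes that reached a mean of 5 RPKM in at least 1 group. Nr4a3 is the highest in every group, and Nr4a1 comes second only in the 0p5h libraries.

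Part of the other immediate early genes changed between the same sets. From ctrl to 0p5h, 5 of 18 rose in WT (Fos, Fosb, Junb, Btg2 and Klf4) and 0 fell, where 0.176% of all genes tested were called, and the median log2 fold change was 1.08 over the list. In Cacnb3-/- BMDCs 6 of 18 rose and 0 fell, against 0.29% of all genes called, with a median of 1.23. Those with the lowest p were Dusp1, Fos, Fosb and Btg2. Fosb, an AP-1 subunit, had a log2 fold change of 5.73 in WT (standard error 0.60, adjusted p = 0.00456, edgeR) and 5.18 in Cacnb3-/- BMDCs (standard error 0.59, adjusted p = 0.00164, edgeR). Egr1, Egr2 and Egr3 were not called in WT, at log2 fold changes of 1.22, 1.24 and 2.90, and Jun was at -0.035. Into 24h, 7 of 18 fell in WT and 9 fell in Cacnb3-/- BMDCs, where Dusp2, a nuclear MAPK phosphatase, rose, against 0.639% and 0.66% of all genes called. The list was compiled with earlier results of these data known.

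The genes for factors that act on Nr4a transcription and for partners of the proteins are given by counts, which at 0.176% and 0.29% of all genes called from ctrl to 0p5h would be near 0 for any list of their size. Of 32 genes for CREB, MEF2, calcineurin, NFAT, CaM kinase, SRF and MAPK components, 30 were tested from ctrl to 0p5h in each genotype and 0 were called, with medians of 0.024 in WT and 0.0039 in Cacnb3-/- BMDCs. Crem, which encodes cAMP-inducible members of the CREB family, had log2 fold changes of 0.55 (adjusted p = 0.243, edgeR) and 0.63 (adjusted p = 0.635, edgeR). Of 11 genes for partners and coregulators, such as the RXR proteins and NCoR, 10 were tested and 0 were called. Of 15 genes described elsewhere as regulated by Nr4a proteins, 10 were tested in WT and 11 in Cacnb3-/- BMDCs and 0 were called. Ccr7, the chemokine receptor that guides dendritic cells to lymph nodes, was at 0.23 (adjusted p = 0.9997, edgeR) and 0.27 (adjusted p = 0.99995, edgeR). Into 24h, 0 genes of these 3 lists were called at the 2-fold minimum.

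Genes whose log2 CPM followed each Nr4a gene most closely over the 30 libraries are given as a description, since all values come from the same libraries and the sets alone make genes correlate. For Nr4a1 they were Fosb (Pearson's r = 0.967), the kinase gene Sik1 (0.936), Ets2 (0.925), Zfp703 (0.911) and Ccrl2 (0.908). For Nr4a2 they were Tgif1 (r = 0.941), the proton-sensing receptor gene Gpr65 (0.896), the cytokine gene Osm (0.895), D16Ertd472e (0.890) and Spty2d1 (0.883). For Nr4a3 they were the cytokine gene Il1b (r = 0.878), Chst11 (0.875), Exoc2 (0.865), Got1 (0.862) and Rab11fip1 (0.859). No gene stood in 2 of these lists. After the means of the 6 groups were subtracted, the closest were Fosb (0.808), Egr1 (0.791) and Egr3 (0.697) for Nr4a1. They were Tgif1 (0.871), Crem (0.863) and Upf2 (0.845) for Nr4a2, and Fgl2 (0.943), M6pr (0.900) and Trim21 (0.878) for Nr4a3. Between the Nr4a genes themselves r was 0.704 for Nr4a1 and Nr4a2, 0.553 for Nr4a1 and Nr4a3 and 0.512 for Nr4a2 and Nr4a3. With group means subtracted these were -0.021, 0.217 and 0.269.

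The size of the change in each culture was also compared between members. Over 10 cultures, the log2 change from ctrl to 0p5h of Nr4a2 was correlated with that of Nr4a3 (Pearson's r = 0.908, permutation p = 0.00028, adjusted 0.00084 over 6 pairs; Spearman's rho = 0.903, permutation p = 0.00095, adjusted 0.0057). Without the 2 cultures farthest from the median on Nr4a2, r was 0.841. For the change from 0p5h to 24h, r was 0.941 (permutation p = 0.00011, adjusted 0.00066) and rho was 0.830 (permutation p = 0.00477, adjusted 0.0143), and r was 0.947 without the 2 farthest cultures. The changes share the 0p5h libraries, so these are not 2 separate observations. Nr4a1 was not correlated beyond the threshold with either gene from ctrl to 0p5h (r = 0.438 with Nr4a2, permutation p = 0.203, adjusted 0.305, and r = 0.183 with Nr4a3, permutation p = 0.608, adjusted 0.608). Spearman's rho was 0.552 (permutation p = 0.104, adjusted 0.208) and 0.442 (permutation p = 0.203, adjusted 0.244). Without the 2 cultures farthest from the median on Nr4a1, r was 0.561 and 0.182. From 0p5h to 24h, r was 0.444 (permutation p = 0.194, adjusted 0.305) and 0.357 (permutation p = 0.307, adjusted 0.369). The values of rho were 0.491 (permutation p = 0.154, adjusted 0.231) and 0.345 (permutation p = 0.327, adjusted 0.327), and r without the 2 farthest on Nr4a1 was 0.483 and 0.569. These values pool genotypes whose mean fall of Nr4a1 was not the same, and each genotype held 5 cultures, too few for a correlation within it. The smallest changes of Nr4a2 and Nr4a3 stood in lane 3, as given above, and each lane held 3 cultures, too few to test the relation within it.

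**Figure D5:**
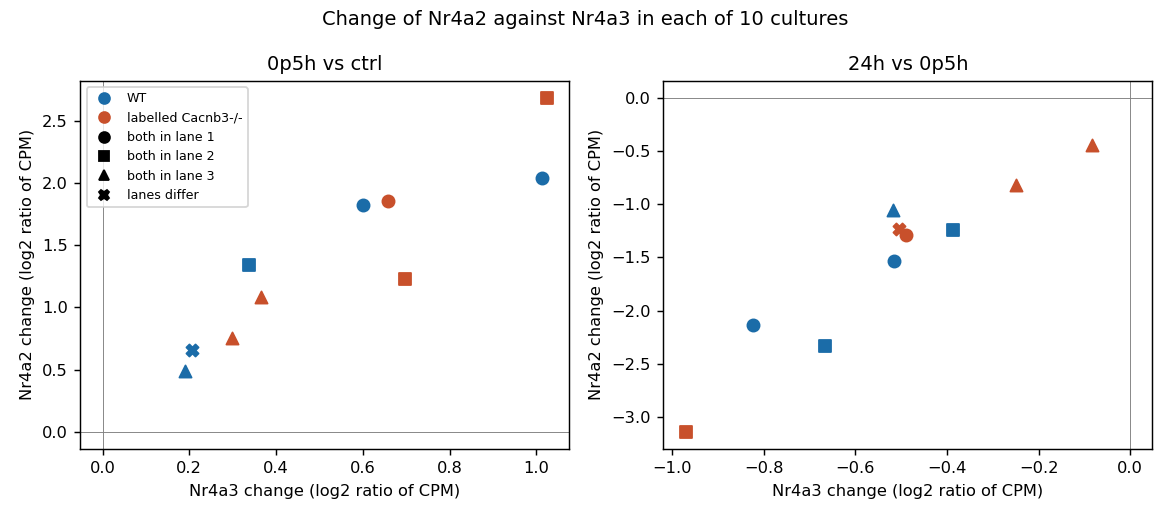
Log2 change of Nr4a2 (y axis) against that of Nr4a3 (x axis) in 10 cultures, from ctrl to 0p5h (left) and from 0p5h to 24h (right), with marker shapes for lanes. Culture p974s865 has the largest changes of both genes, 6.42-fold and 2.04-fold from ctrl to 0p5h.

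The Nr4a genes were also compared between genotypes within each set. Substrain differs along with genotype, as given above, so the part of the β3 subunit cannot be told apart. Reads were counted on Cacnb3 in all libraries, at 573 to 1331 CPM in those labelled Cacnb3-/- and at 1035 to 2143 CPM in WT, and since the deleted part of the gene was not known here these counts do not check the label. edgeR within each set called none of the 3 Nr4a genes between genotypes, and other fits called Nr4a1 in 24h. In ctrl, the log2 difference of Cacnb3-/- from WT was 0.12 for Nr4a1, -0.087 for Nr4a2 and -0.62 for Nr4a3 (standard errors 0.35, 0.35 and 0.25, adjusted p = 0.879, 0.915 and 0.272, edgeR). For Nr4a3 in ctrl, WT culture p974s864 (341 CPM) lay below all 5 libraries labelled Cacnb3-/-, and the other 4 WT cultures lay above them. Leaving out 1 culture gave differences of -0.80 to -0.47 for Nr4a3 in ctrl (adjusted p = 0.0323 to 0.539, edgeR). None of these reached the 2-fold minimum. In 0p5h the values were 0.39, 0.13 and -0.39 (standard errors 0.39, 0.17 and 0.20, adjusted p = 0.617, 0.713 and 0.354, edgeR). In 24h they were -1.52, 0.51 and -0.31 (standard errors 0.58, 0.38 and 0.19, adjusted p = 0.0805, 0.334 and 0.232, edgeR). The genotypes overlapped for each gene in each set.

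edgeR called 0 of 13022, 12806 and 12706 genes between genotypes in ctrl, 0p5h and 24h (0% in each), with 2161, 2103 and 4877 at an unadjusted p under 0.05. DESeq2 called 146, 84 and 606 genes. The count of 0 hinged on single cultures, since edgeR called 249 genes in ctrl and 733 in 24h without WT culture p974s864, and 1129 in 24h without Cacnb3-/- culture p974s865. With no filter on low counts it called 376 in 24h. For Nr4a1 in 24h the call depended on the fit. DESeq2 gave a log2 fold change of -1.52 (adjusted p = 0.0266, Benjamini-Hochberg adjustment) and called 1 of the 3 genes, where 4.74% of all genes were called. With all 30 libraries in 1 edgeR fit the value was -1.55 (adjusted p = 0.0280) and 1 of 3 was called, against 4.47% of all genes. That fit held no term for culture and so treated the 3 libraries of a culture as separate, although they deviated together (median r = 0.609). Its adjusted p can therefore be too small. The size of the difference varied with single WT cultures. Without p974s855, which had the highest value at 29.3 CPM, it was -0.93 (adjusted p = 0.220, edgeR), and without p974s864, which had the lowest at 2.58 CPM, it was -1.78 (adjusted p = 0.0383, edgeR). In these libraries the summed level of 10 dendritic cell markers was 22758 to 37842 CPM for WT, against 18470 to 28963 CPM for those labelled Cacnb3-/-, and the part of this in the difference was not tested.

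The difference between genotypes in the change between sets was tested as an interaction. From ctrl to 0p5h it was 0.27 for Nr4a1, 0.21 for Nr4a2 and 0.23 for Nr4a3 on the log2 scale (standard errors 0.56, 0.41 and 0.33, adjusted p = 0.99996 for each, edgeR). From 0p5h to 24h it was -1.92, 0.39 and 0.082 (standard errors 0.74, 0.45 and 0.28, adjusted p = 0.680, 0.787 and 0.943, edgeR). From ctrl to 24h it was -1.64, 0.60 and 0.32 (standard errors 0.72, 0.56 and 0.32, adjusted p = 0.753, 0.780 and 0.792, edgeR). These tests did not pair the libraries of a culture. In them edgeR called 0 of 13465, 13424 and 13536 genes (0% in each), and DESeq2 called 0 in each. At an unadjusted p under 0.05 edgeR had 30, 789 and 658 genes. From ctrl to 0p5h the 30 genes are fewer than the share of 0.05 that chance gives, so the unpaired test was conservative there. With culture as a replicate block edgeR called 0, 1 and 16 genes, and none of them was an Nr4a gene. The culture numbers were not shown to pair ctrl with 24h in all cultures labelled Cacnb3-/- (r over 0.1 in 4 of 5). For Nr4a1 from 0p5h to 24h the unadjusted p was 0.0175 without pairing (edgeR). The larger fall in libraries labelled Cacnb3-/- was thus not shown to differ from that in WT by either fit.

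Over 10 markers of dendritic cells, MHC class II and costimulatory genes among them, the summed level was 18470 to 41641 CPM in the 30 libraries. Such a sum does not show which of its genes carry it, and sums of different lists are not shares of cell types. The summed level of 8 macrophage markers was 623 to 2415 CPM, that of 8 granulocyte markers 108 to 565 CPM and that of 6 mast cell and basophil markers 59.7 to 185 CPM. For 6 T cell markers it was 4.93 to 23.1 CPM, for 5 B cell markers 0.614 to 5.10 CPM and for 6 erythroid markers at most 0.432 CPM, with 3 of the latter at 0 in all Cacnb3-/- libraries named 0p5h. In these bulk samples fewer cells of a type and less RNA per cell cannot be told apart, and the part of other cell types in the Nr4a levels was not tested.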

How the data were processed

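The authors deposited 1 table of raw read counts per gene for 30 libraries. Its header names featureCounts 1.5.1 and Ensembl release 79 (GRCm38), with no option for strand, multiple alignments or read pairs. STAR 2.4 is named in the submitters' processing notes, while the paper's methods name GRCm39. Symbols came from GENCODE by Ensembl identifier (38984 of 43629), and promoters from RefSeq (GRCm38.p6, 3 of 3 matched). No other annotated gene of the table overlapped the 3 genes.

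The members, gene lists and tests were chosen with earlier results of these data known. Genes kept by filterByExpr were tested within the groups compared with edgeR 4.0.16 (TMM, quasi-likelihood, Benjamini-Hochberg adjustment) in R 4.3.3. DESeq2 1.42.0, its size factors, no filter, no fold minimum, all 30 libraries, GC correction, the culture number as a block and leaving out each culture were alternatives. The lane as a covariate and both genotypes together were added after seeing the data. Ratios used a pseudocount of 0.5 and exact permutation tests, and correlations 100000 permutations (SciPy 1.17.1). Named genes were the 3 members, from each list all called genes where 5 or fewer and otherwise the 4 with the lowest p, Cacnb3, and the 5 most alike over 30 libraries and the 3 most alike after group means were subtracted. Crem, Jun, Egr1, Egr2, Egr3, Ccr7, Dusp2, Vdr and Nr1h2 were also named after their values were seen.

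Same-numbered libraries deviated together from their group means (r over 0.1 in 29 of 30 pairs over 13755 genes), so numbers were taken to pair libraries except between ctrl and 24h in Cacnb3-/- BMDCs, where p974s843 was at 0.0746. On simulated data with 200 genes changed 4-fold, edgeR recovered 89% from ctrl to 0p5h in WT with 5 false calls, and DESeq2 94% with 15. In the interaction from 0p5h to 24h edgeR recovered 84% with 6 false calls, and DESeq2 89.5% with 26. The simulated libraries held no culture effect. Changes as small as those of Nr4a2 and Nr4a3 were not simulated, so these shares do not apply to them.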

Additional observations from a re-analysis of the deposited data

Results flagged for a closer look

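In 1 of 18 groups of 5 libraries (3 genes in 6 groups), 1 value stood far from the others by Dixon's test, which chance gives in about 1 in 20 groups. Nr4a1 in the library labelled Cacnb3-/- and named 24h of culture p974s843 was at 8.38 CPM, from 63 reads, and the other 4 were between 2.73 and 4.36 CPM. The same culture had the lowest Nr4a1 of its group in ctrl, at 3.72 CPM. Without it, the log2 fold change of Nr4a1 from WT to Cacnb3-/- in 24h was -1.85 in place of -1.52, with an adjusted p of 0.116 (edgeR).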

How the results depend on the processing

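The number of Nr4a genes called was 2 in place of 1 from ctrl to 0p5h in WT under DESeq2, the replicate block, the block with GC correction and lane as a covariate, and in Cacnb3-/- BMDCs under DESeq2, no filter on low counts and both blocked fits. From 0p5h to 24h in Cacnb3-/- BMDCs it was 2 in place of 1 under DESeq2 and both blocked fits. Between genotypes in 24h it was 1 in place of 0 under DESeq2 and with all 30 libraries in 1 fit, which held no term for culture. Each of these fits also called more genes in number. From ctrl to 0p5h in WT they called 31 to 78 genes in place of 23. From 0p5h to 24h in Cacnb3-/- BMDCs they called 203 to 367 in place of 84. Leaving out 1 culture gave 0 to 2 called Nr4a genes from 0p5h to 24h in WT and 0 to 1 between genotypes in 24h. The replicate block changed no other call of these genes. Directions turned only for changes that were not called: with lane as a covariate, Nr4a1 in WT (-0.14) and Nr4a2 in Cacnb3-/- BMDCs (-0.094) from ctrl to 24h and Nr4a2 between genotypes in 24h (-0.025). Leaving out 1 culture gave ranges of -0.10 to 0.91 for Nr4a1 from ctrl to 24h in WT, -0.17 to 0.33 for Nr4a1 and -0.28 to 0.15 for Nr4a2 between genotypes in ctrl, and, as interactions, -0.024 to 0.41 for Nr4a2 from ctrl to 0p5h and -0.013 to 0.23 for Nr4a3 from 0p5h to 24h. The cause was not tested. With the replicate block as a sign-flip test, all 12 ratios had an adjusted p of 0.0625, the lowest it allows, at unchanged values of 2.96, 3.76, 0.80, 3.04, 3.96, 0.91, -2.57, -3.65, -1.08, -4.27, -5.20 and -0.93. Leaving out 1 culture kept every direction, and the exact tests, with 4 libraries a group, lost significance in 18 of 60 cases: Nr4a1 to Nr4a2 from ctrl to 0p5h in Cacnb3-/- BMDCs (2.62 to 3.29), and Nr4a2 to Nr4a3 from ctrl to 0p5h in WT (0.69 to 0.92) and Cacnb3-/- BMDCs (0.73 to 1.03) and from 0p5h to 24h in WT (-1.21 to -0.93) and Cacnb3-/- BMDCs (-1.07 to -0.62). Depth limits Nr4a1 most, which had 31 to 87 reads in the Cacnb3-/- libraries named 24h.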
